A study of Mus musculus with 16 samples.

Results

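Toll-like receptors are the innate sensors with which macrophages recognise microbial molecules and molecules released by damaged cells. The 10 mouse genes Tlr1, Tlr2, Tlr3, Tlr4, Tlr5, Tlr6, Tlr7, Tlr8, Tlr9 and Tlr13 were followed as a gene family, chosen by symbol from the 24421 gene symbols of the deposited count table. All 10 were found in the table, and all 10 passed the filter on low counts that left 13649 genes for testing.

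RNA was sequenced from macrophages of mouse muscle that had been sorted as F4/80-positive cells, in 16 libraries. The 4 groups of 4 libraries each were GLUD1 KO macrophages from CTX-injected muscle (KO CTX), WT macrophages from CTX-injected muscle (WT CTX), GLUD1 KO macrophages from normal muscle (KO normal) and WT macrophages from normal muscle (WT normal). The design text places the CTX samples at the time of greatest muscle damage and the others at baseline, and it names M1, M2 and wound healing genes as the study's subject. CTX is given only as an abbreviation, and the age and strain of the mice, the deleted stretch of Glud1 and what drives its deletion are not given in these sources. Whether each library is a mouse of its own is not stated in the labels, so p-values reflect spread among libraries that could be technical in origin. Replicate numbers run 1 to 4 in both CTX groups, and are 1, 2, 3 and 5 in KO normal and 2, 3, 5 and 6 in WT normal. Values are listed in that order throughout.

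Total counts per library were 17051892 to 23097420. Values are CPM, counts scaled to a common library size, after scaling with TMM factors, which correct for differences in RNA composition. The factors were lower in all 8 CTX libraries (0.758 to 0.866) than in all 8 normal libraries (1.13 to 1.34). The first principal component separated CTX from normal libraries and held 78.3% of the variance. All 8 macrophage markers were detected in every group, and their summed level was 21427 to 25638 CPM in KO CTX, 28479 to 35578 CPM in WT CTX, 10225 to 16498 CPM in KO normal and 12018 to 19079 CPM in WT normal libraries. Cd14 and Lyz2 carried most of that sum in CTX libraries, and most of its gap between KO CTX and WT CTX. Lyz2 averaged 8021 ± 922 CPM in KO CTX and 14893 ± 1174 CPM in WT CTX, and Cd14 7977 ± 592 and 10161 ± 1569 CPM. Cd68 averaged 1625 and 1610 CPM in the same groups, and 0 of the 8 markers were called between KO and WT in CTX muscle. Of the 8 markers, 5 were called higher and 2 lower after injury in KO, and 6 higher and 2 lower in WT. The lower ones were Csf1r and Mertk in both genotypes, with log2 fold changes of -0.79 and -0.71 in KO and -0.86 and -1.24 in WT. Adgre1, which encodes the F4/80 antigen of the sort, averaged 893 ± 234 CPM in KO CTX, 845 ± 289 CPM in WT CTX, 539 ± 28.2 CPM in KO normal and 603 ± 83.0 CPM in WT normal libraries (SD, n = 4 each). Glud1 had 327, 334, 351 and 342 CPM in KO CTX libraries, against 391, 387, 348 and 366 CPM in WT CTX libraries. In normal muscle it had 240.0, 238, 272 and 209.8 CPM in KO libraries, against 258, 292, 253 and 219 CPM in WT libraries. Neither difference passed the test (log2 fold change, KO over WT, -0.14 with edgeR adjusted p = 0.936 in CTX muscle and -0.09 with edgeR adjusted p = 0.991 in normal muscle). The count covers the whole gene and so does not check a deletion of part of it.

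Each Toll-like receptor carries an extracellular or luminal domain of leucine-rich repeats that binds the ligand. Its cytoplasmic TIR domain recruits adaptors, which for most members, though not for Tlr3, include MyD88. Tlr2 pairs with Tlr1 or Tlr6 at the cell surface to bind bacterial lipoproteins, Tlr4 binds lipopolysaccharide together with Md-2 and CD14, and Tlr5 binds flagellin. The remaining members work in endosomes: Tlr3 binds double-stranded RNA, Tlr7 and, in humans, Tlr8 bind single-stranded RNA, Tlr9 binds DNA with unmethylated CpG, and the mouse receptor Tlr13 binds bacterial ribosomal RNA. Endosomal receptors need the chaperone Unc93b1 to leave the endoplasmic reticulum, and several are cut by cathepsins before they signal. The signals end in NF-kB and interferon regulatory factors, and so in cytokines such as Tnf and Il1b.

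After CTX injection the family split, and it split the same way in both genotypes. Tlr1, Tlr2, Tlr4, Tlr6 and Tlr13 rose, Tlr3, Tlr5 and Tlr8 fell, and Tlr7 and Tlr9 did not pass the test. A gene was called at an adjusted p below 0.05 in edgeR's quasi-likelihood test over all genes. Of the 10 receptors, 8 were called in KO and 8 in WT, where 73.6% of all tested genes were called in KO and 72.7% in WT, so a call as such does not set the receptors apart. The 5 called higher stand beside 33.3% of all genes in KO and 33.3% in WT, and the 3 called lower beside 40.2% in KO and 39.4% in WT. The KO and WT injury comparisons share no library, and 66.8% of all genes were called in the same direction in both. The median log2 fold change of the 10 receptors was 0.50 in KO and 0.25 in WT, beside -0.16 and -0.15 over all genes tested. These directions are relative to TMM scaling. With library totals as the only scaling, the median of all genes stood at -0.77 in both genotypes. Of the receptors, 2 in KO and 3 in WT were then called higher and 5 in each genotype lower. Of all 13649 genes, 1920 in KO and 1944 in WT were then called higher, and 8398 and 8349 lower, so the receptor counts moved with all genes. In bulk RNA of sorted cells, fewer cells of a type and less RNA per cell cannot be told apart.

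**Figure D1:**
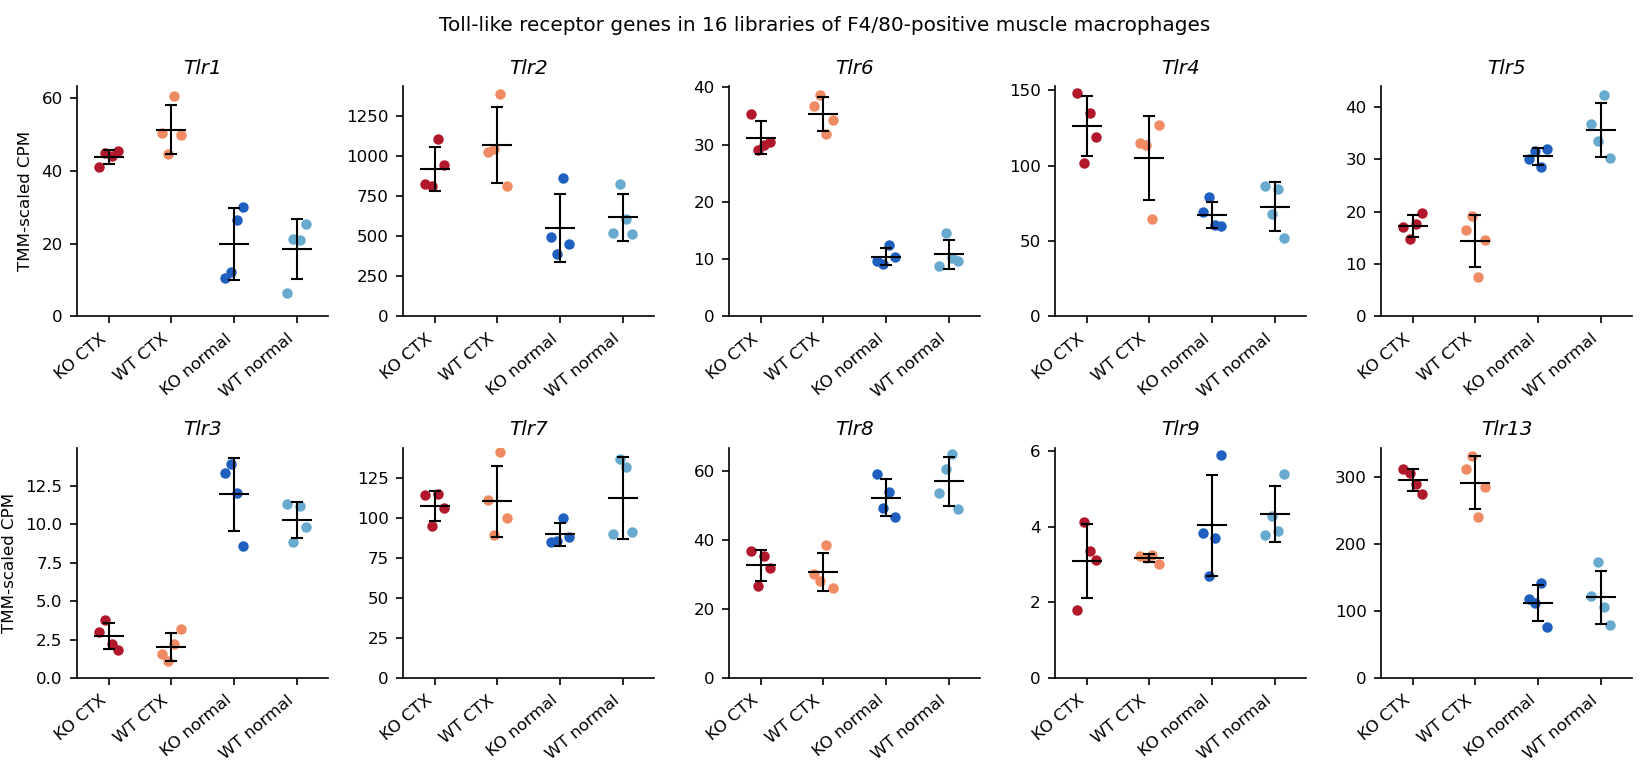
Each panel plots 1 receptor gene, with TMM-scaled CPM on the vertical axis, 1 point for each of the 16 libraries and bars for the mean and SD of the 4 libraries of a group. Tlr1, Tlr6 and Tlr13 lie higher and Tlr3, Tlr5 and Tlr8 lower in all CTX libraries than in all normal libraries, while the other 4 overlap.

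Tlr2, the shared partner of the lipoprotein receptors, was the most abundant member in every library. It had 822, 810.0, 1105 and 942 CPM in KO CTX libraries, against 493, 389, 864 and 454 CPM in KO normal libraries. In WT it had 1027, 1046, 1383 and 810.1 CPM in CTX libraries, against 521, 828, 609 and 513 CPM in normal libraries. KO normal 3 and WT normal 3 were the highest normal libraries of their groups and reached the lowest CTX libraries, so the groups overlapped in both genotypes. The log2 fold change was 0.74 (SE 0.23, edgeR adjusted p = 0.00963) in KO and 0.79 (SE 0.23, edgeR adjusted p = 0.00671) in WT. An exact two-sided permutation test of the CPM values gave p = 0.0857 in KO and p = 0.0571 in WT, where 0.0286 is the smallest p that 4 against 4 libraries allow. Neither call remained under library totals alone (log2 0.15, edgeR adjusted p = 0.512 in KO and log2 0.18, edgeR adjusted p = 0.448 in WT). The WT call also ended with the replicate number as a block (log2 0.85, edgeR adjusted p = 0.0669) and over male libraries alone (log2 0.66, edgeR adjusted p = 0.0784). Only numbers 2 and 3 occur in both WT groups, so the block rests on 2 pairs in WT. Over all genes it left 2401 called higher and 3106 lower in WT, against 4551 and 5378 in the main fit. Summed neutrophil markers, 7 of 8 of which were in the table, ran 299.6 to 1184 CPM in KO CTX, 209 to 468 CPM in WT CTX, 244 to 6390 CPM in KO normal and 290 to 4351 CPM in WT normal libraries. None of the 7 was called in KO and 4 were called lower in WT, and their part in the Tlr2 values was not tested.

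The sequence before the Tlr2 start is shown because it is the window of a rising member that holds a consensus site of NF-kB, the factor at the end of the pathway itself. It is from RefSeq on GRCm38.p6, minus strand, chr3:83841768-83841858, written 5′ to 3′, with annotated exon bases left out and the site in capitals.
Tlr2: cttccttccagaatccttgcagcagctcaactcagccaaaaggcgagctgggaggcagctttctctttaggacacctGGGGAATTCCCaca
The capitals hold 2 overlapping matches, which begin 173 and 172 bases before the start. RefSeq windows of 250 bases before the start were found for 8 of the 10 members, with 10 entries in all and none for Tlr4 and Tlr7. Over the whole windows the NF-kB consensus was found in 2 of the 8 members, Tlr2 and Tlr3, one of which rose and one of which fell after injury. It was found in 3.9% of all 32851 windows. A match is a run of letters and no evidence that the factor binds there.

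Tlr6, one of the surface partners of Tlr2, showed the largest rise among the members in both genotypes. Its libraries had 35.4, 29.0, 29.9 and 30.4 CPM in KO CTX, against 9.67, 9.16, 12.5 and 10.4 CPM in KO normal. In WT they had 36.8, 38.7, 31.9 and 34.2 CPM in CTX, against 8.83, 14.5, 10.2 and 9.75 CPM in normal muscle. All 8 CTX libraries lay above all 8 normal libraries, a separation in either direction that 53.8% of all tested genes showed. Within genotypes, 7 of the 10 receptors separated in KO, beside 66.8% of all genes, and 7 in WT, beside 65.5%. The rise was 2.99-fold in KO (log2 1.58, SE 0.15, edgeR adjusted p = 1.21e-07) and 3.27-fold in WT (log2 1.71, SE 0.15, edgeR adjusted p = 5.23e-08). Under library totals the log2 fold change was 0.98 in KO and 1.10 in WT, both still called. The genes whose log2 CPM followed Tlr6 most closely over the 16 libraries were Ufm1 (Pearson r = 0.996), Dtx4 (r = 0.995) and Sik3 (r = 0.995), a description over libraries that share the difference between CTX and normal muscle.

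An entry of Tlr6 is shown as the sole member window with the core of the interferon-stimulated response element, GAAANNGAAA, searched on both strands. It lies on the minus strand of GRCm38.p6 at chr5:64959167-64959416, and capitals mark the matches. This window precedes a start that lies inside the annotated span of the gene (chr5:64952031-64960097). The other Tlr6 entry, just before that span at chr5:64960098-64960298, held no match.
Tlr6: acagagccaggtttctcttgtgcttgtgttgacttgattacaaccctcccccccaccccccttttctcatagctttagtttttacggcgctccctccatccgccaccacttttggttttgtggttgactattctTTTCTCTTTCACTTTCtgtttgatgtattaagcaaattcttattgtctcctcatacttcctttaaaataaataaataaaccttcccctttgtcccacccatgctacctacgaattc
The capitals span 2 overlapping matches, which begin 116 and 110 bases before the start. The motif was found in 2.98% of all windows.

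Tlr1, the alternative partner of Tlr2 and the neighbour of Tlr6 on chromosome 5, rose as well. KO CTX libraries had 41.0, 45.1, 44.1 and 45.4 CPM, against 10.6, 12.2, 26.6 and 30 CPM in KO normal libraries. WT CTX libraries had 50.4, 44.6, 60.7 and 49.9 CPM, against 6.53, 21.4, 20.9 and 25.5 CPM in WT normal libraries. The groups did not overlap in either genotype. The normal libraries differed among themselves: the 3 numbered 1 or 2 had 6.53 to 12.2 CPM and the 5 numbered 3, 5 or 6 had 20.9 to 30 CPM. Tlr1 was 2.22-fold higher in KO (log2 1.15, SE 0.35, edgeR adjusted p = 0.00708) and 2.77-fold higher in WT (log2 1.47, SE 0.35, edgeR adjusted p = 0.00133). In WT, blocking on the replicate number, which rests on the pairs numbered 2 and 3, moved the log2 value to 2.1. Under library totals Tlr1 kept its call in WT (log2 0.87) and lost it in KO (log2 0.56, edgeR adjusted p = 0.12).

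Tlr1 (chr5:64924679-64933563, minus strand, GRCm38) and Tlr6 (chr5:64952031-64960097, minus strand) share sequence, which bears on how their reads were counted. Their coding sequences hold an identical run of 229 bases, at coding positions 1468 to 1696 of 2385 in Tlr1 (chr5:64925537-64925765) and 1507 to 1735 of 2418 in Tlr6 (chr5:64953828-64954056). The left edge of the run, with 30 bases before it in lower case and its first 30 bases in capitals, reads as follows on the coding strand, from the GRCm38 transcripts.
Tlr1: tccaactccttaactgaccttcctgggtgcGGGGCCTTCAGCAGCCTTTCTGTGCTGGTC
Tlr6: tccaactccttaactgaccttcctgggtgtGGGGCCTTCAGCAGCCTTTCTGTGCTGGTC
Identical windows of 50 bases made up 13.6% of all such windows in Tlr1 and 12.3% in Tlr6. The 454 shared windows are more than the run alone holds, so identical stretches lie outside it as well. The treatment of multi-mapping reads is not given, so reads from any of these stretches could have been lost or shared. No other pair of members shared a run longer than 18 bases.

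Tlr4, the lipopolysaccharide receptor (chr4:66827584-66930284, plus strand), rose in both genotypes, and the difference between their rises was not called (interaction log2 0.38, SE 0.28, edgeR adjusted p = 1.0). KO CTX libraries had 148, 102, 135 and 119 CPM, against 69.0, 79.2, 60.8 and 60.1 CPM in KO normal libraries, with no overlap. WT CTX libraries had 115, 114, 64.3 and 127 CPM, against 86.4, 67.8, 84.7 and 51.8 CPM in WT normal libraries. WT CTX 3 alone lay within the WT normal range. The log2 fold change was 0.91 (SE 0.20, edgeR adjusted p = 0.000697) in KO and 0.53 (SE 0.20, edgeR adjusted p = 0.0247, exact two-sided permutation p = 0.114) in WT. The WT call ended when any of 5 single libraries was left out, WT normal 3 (log2 0.48), WT normal 6 (0.38), WT CTX 1 (0.49), WT CTX 2 (0.49) or WT CTX 4 (0.43), with edgeR adjusted p of 0.0562 to 0.098. It also ended with the replicate number as a block (log2 0.13), over male libraries (log2 0.43), under a filter of 5 CPM in 4 libraries (log2 0.36) and in a fit of the 2 WT groups alone (log2 0.50). Its direction in WT turned under library totals (log2 -0.08), and the KO call ended (log2 0.29, edgeR adjusted p = 0.229).

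Tlr5, the flagellin receptor (chr1:182954788-182976044, plus strand), was the surface receptor that fell. It had 17.1, 14.8, 17.6 and 19.8 CPM in KO CTX libraries, against 30.1, 31.7, 28.6 and 32.0 CPM in KO normal libraries. In WT it had 16.5, 19.2, 7.58 and 14.7 CPM in CTX libraries, against 36.7, 33.6, 42.3 and 30.2 CPM in normal libraries. Every CTX library lay below every normal library, with WT CTX 3 lowest. The log2 fold change was -0.82 (SE 0.20, edgeR adjusted p = 0.00142) in KO and -1.29 (SE 0.20, edgeR adjusted p = 2.59e-05) in WT, and its difference between genotypes was not called (interaction log2 0.47, unadjusted p = 0.107, edgeR adjusted p = 1.0).

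Tlr13, the receptor for bacterial ribosomal RNA (chrX:106143204-106160493, plus strand), was the endosomal receptor that rose. KO CTX libraries had 311, 305, 289 and 274 CPM, against 118, 112, 141 and 75.6 CPM in KO normal libraries. WT CTX libraries had 311, 330, 239 and 284 CPM, against 122, 173, 106 and 79.3 CPM in WT normal libraries. Tlr13 was 2.64-fold higher in KO (log2 1.40, SE 0.21, edgeR adjusted p = 1.76e-05) and 2.42-fold higher in WT (log2 1.28, SE 0.21, edgeR adjusted p = 4.45e-05). With library totals alone the log2 values were 0.79 and 0.67, both called.

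Sex differed between the groups by the level of Xist, the RNA that silences 1 X chromosome in females. Xist stood at 89.0 to 208 CPM in 3 normal libraries (KO normal 5, WT normal 5 and WT normal 6) and at 0 to 0.128 CPM in the other 13, which include all CTX libraries. Tlr13, an X-linked gene, had 75.6 to 106 CPM in those 3 libraries and 112 to 173 CPM in the 5 normal libraries without Xist. Over the libraries without Xist, Tlr13 still rose, by log2 1.24 in KO and 0.97 in WT. The other X-linked members overlapped between the libraries with and without Xist, at 88.2 to 132 and 85.0 to 137 CPM for Tlr7 and at 46.6 to 64.7 and 49.3 to 60.5 CPM for Tlr8.

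Tlr7, a receptor of single-stranded RNA, and its homologue Tlr8 are neighbours on chromosome X (chrX:167304929-167330558 and chrX:167242696-167264329, both minus strand, GRCm38), and only Tlr8 was called. Tlr8 had 36.6, 26.5, 35.3 and 31.9 CPM in KO CTX libraries, against 59.0, 49.3, 53.8 and 46.6 CPM in KO normal libraries. In WT it had 30.2, 28.0, 38.5 and 25.9 CPM in CTX libraries, against 53.5, 60.5, 64.7 and 48.9 CPM in normal libraries. All CTX libraries lay below all normal libraries, and the log2 fold change was -0.68 (SE 0.14, edgeR adjusted p = 0.000307) in KO and -0.89 (SE 0.14, edgeR adjusted p = 2.44e-05) in WT. Tlr7 had 114, 95, 115 and 106 CPM in KO CTX libraries, against 85.0, 85.5, 99.9 and 88.2 CPM in KO normal libraries. Its WT libraries had 111, 89.2, 141 and 99.8 CPM after CTX, against 89.6, 137, 132 and 91.4 CPM in normal muscle. The groups of Tlr7 overlapped in both genotypes, and its log2 fold change was 0.26 (SE 0.15, edgeR adjusted p = 0.138) in KO and -0.03 (SE 0.15, edgeR adjusted p = 0.888) in WT. Under library totals Tlr7 was called lower in both (log2 -0.35, edgeR adjusted p = 0.0301 in KO and log2 -0.63, edgeR adjusted p = 0.000523 in WT).

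The ratio of both levels per kb of exon does not depend on the scaling of libraries. Tlr7 stood at 2.92 ± 0.171 times the Tlr8 level in KO CTX and 3.16 ± 0.255 times in WT CTX, against 1.52 ± 0.181 times in KO normal and 1.72 ± 0.218 times in WT normal libraries (SD, n = 4 each). No CTX library overlapped with a normal one in this ratio. Within the groups the pair varied together: the deviations of log2 CPM from the group means correlated with r = 0.78 over the 16 libraries, the joint highest of all member pairs, a description of values that share library depth and scaling.

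The windows before the starts of Tlr13 and Tlr8, an endosomal receptor that rose and one that fell, are shown together because both hold GAGGAA, the core bound by ETS factors such as PU.1 of macrophages. They are from RefSeq on GRCm38.p6, plus strand chrX:106143025-106143203 for Tlr13 and minus strand chrX:167264330-167264579 for Tlr8, with annotated exon bases left out and the core in capitals on either strand.
Tlr13: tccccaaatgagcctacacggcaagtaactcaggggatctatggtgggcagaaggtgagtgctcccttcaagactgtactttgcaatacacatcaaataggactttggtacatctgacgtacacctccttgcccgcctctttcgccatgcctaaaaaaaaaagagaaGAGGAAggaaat
Tlr8: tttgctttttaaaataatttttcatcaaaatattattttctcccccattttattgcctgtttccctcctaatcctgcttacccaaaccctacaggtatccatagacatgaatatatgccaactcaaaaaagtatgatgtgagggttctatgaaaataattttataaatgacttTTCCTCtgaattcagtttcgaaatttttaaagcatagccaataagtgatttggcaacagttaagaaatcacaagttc
The core begins 83 bases before the start in Tlr13 and 77 bases in Tlr8. It was found in 4 of the 8 members with a window (Tlr1, Tlr8, Tlr9 and Tlr13) and in 23.3% of all windows. The AP-1 motif TGANTCA was found in Tlr9 alone among the members and in 6.75% of all windows.

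Tlr3, the receptor of double-stranded RNA (chr8:45395665-45411080, minus strand), showed the largest fall. Its libraries had 2.99, 3.74, 2.24 and 1.82 CPM in KO CTX, against 13.3, 13.9, 12 and 8.59 CPM in KO normal. In WT they had 1.53, 1.12, 2.19 and 3.19 CPM in CTX, against 11.3, 8.86, 11.2 and 9.83 CPM in normal muscle. All CTX libraries lay far below all normal ones, on 20 to 66 counts per CTX library. Tlr3 was 4.44-fold lower in KO (log2 -2.15, SE 0.28, edgeR adjusted p = 4.05e-06) and 5.12-fold lower in WT (log2 -2.36, SE 0.28, edgeR adjusted p = 2.12e-06). The nearest patterns over the 16 libraries were those of Isoc1 (Pearson r = 0.979), Rnf122 (r = 0.973) and Hist3h2a (r = 0.973).

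Tlr9, the CpG DNA receptor (chr9:106222598-106226883, plus strand), was low everywhere, with 31 to 128 counts per library. KO CTX libraries had 1.79, 4.13, 3.36 and 3.12 CPM, against 3.85, 2.71, 3.71 and 5.90 CPM in KO normal libraries. WT CTX libraries had 3.23, 3.18, 3.26 and 3.02 CPM, against 3.79, 4.30, 3.90 and 5.40 CPM in WT normal libraries. The groups overlapped in KO and did not in WT, and the log2 fold change of -0.38 (SE 0.25, edgeR adjusted p = 0.189) in KO and -0.45 (SE 0.25, edgeR adjusted p = 0.118) in WT was not called. It was called in both under library totals (log2 -0.98 in KO and -1.07 in WT).

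Tlr11 and Tlr12, the remaining mouse receptors, were no members of the family as chosen and are given for completeness. Tlr11, which binds a protein of protozoan parasites, had 0, 3, 1 and 0 counts in KO CTX libraries, against 42.1, 27.7, 11.1 and 18.8 CPM in KO normal libraries. In WT it had 2, 0, 0 and 1 counts in CTX libraries, against 19.3, 7.91, 10.4 and 13.2 CPM in normal libraries. Tlr12, its partner, had 2, 6, 2 and 3 counts in KO CTX libraries, against 19.0, 11.5, 11.1 and 7.69 CPM in KO normal libraries. Its WT CTX libraries had 14, 5, 0 and 3 counts, against 12.4, 5.51, 13.1 and 12.2 CPM in WT normal libraries. Both were called lower in both genotypes, and in CTX libraries they stood at or near the lower limit of counting.

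Markers of other cells that an F4/80 sort could carry fell alongside Tlr3, Tlr5 and Tlr8, and their part in those results was not tested. Conventional dendritic cell markers, with 7 of 8 called lower in both genotypes and Xcr1 called higher, summed to 56.7 to 91.2 CPM in KO CTX, 80.5 to 104 CPM in WT CTX, 452 to 755 CPM in KO normal and 397 to 510.2 CPM in WT normal libraries. Plasmacytoid dendritic cell markers, with 7 of 8 called lower in both genotypes and Bst2 called higher, summed to 248 to 306 CPM in KO CTX, 151 to 269 CPM in WT CTX, 295 to 345 CPM in KO normal and 247 to 372 CPM in WT normal libraries. Siglech, a member of this list, averaged 1.06 ± 0.755 CPM in KO CTX and 0.611 ± 0.624 CPM in WT CTX, against 119 ± 12.8 CPM in KO normal and 109 ± 37.1 CPM in WT normal libraries (SD, n = 4 each). The B cell markers summed to 1.85 to 10.4 CPM in KO CTX, 1.66 to 6.91 CPM in WT CTX, 19.7 to 47.8 CPM in KO normal and 14.3 to 34.8 CPM in WT normal libraries, with Pax5 at 0 in all CTX libraries. Endothelial markers summed to 65.0 to 82.1 CPM in KO CTX, 64.3 to 79.8 CPM in WT CTX, 167 to 233 CPM in KO normal and 124 to 175 CPM in WT normal libraries. Those of fibroblasts stood at 83.5 to 99.5 CPM in KO CTX, 106 to 123 CPM in WT CTX, 214 to 939 CPM in KO normal and 252 to 588 CPM in WT normal libraries. Those of T and NK cells stood at 2.3 to 5.51 CPM in KO CTX, 0.93 to 3.46 CPM in WT CTX, 27.4 to 67.7 CPM in KO normal and 23.6 to 39.5 CPM in WT normal libraries, and Ncr1 was at 0 in all WT CTX libraries. Calls were made lower for 5 of 5 tested B cell, 7 of 8 endothelial, 7 of 8 fibroblast and 7 of 7 T and NK cell markers in KO, and for 4, 6, 6 and 7 of the same lists in WT.

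**Figure D2:**
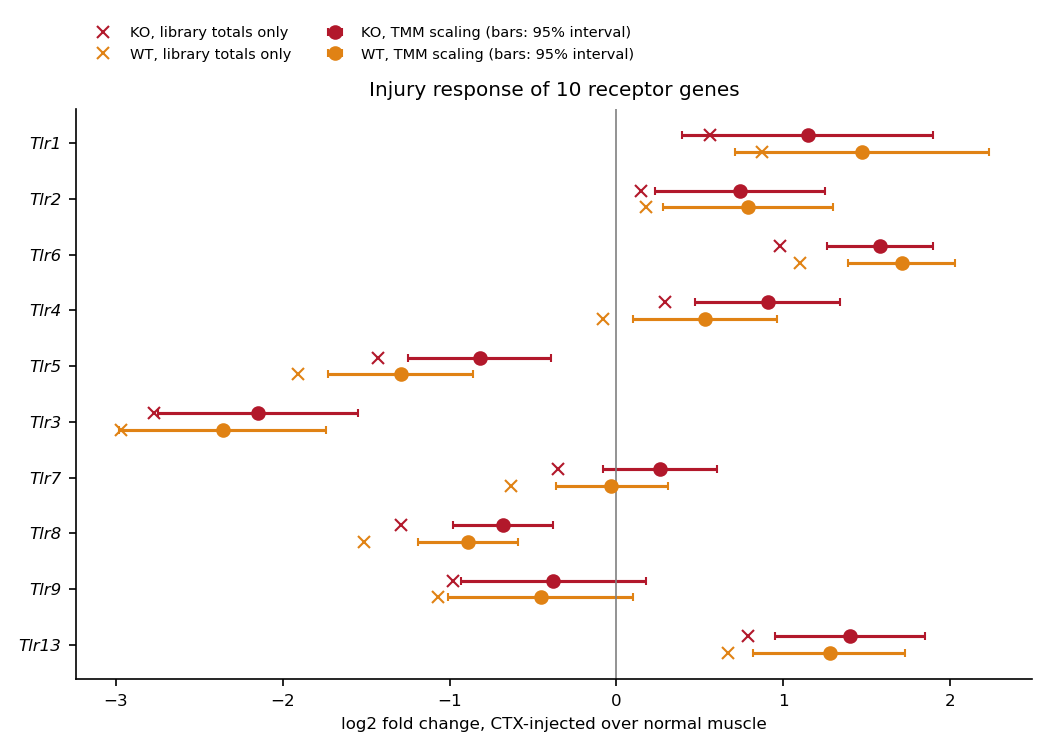
Log2 fold change of each receptor gene, CTX-injected over normal muscle, in KO and in WT, with filled points for TMM scaling, 95% intervals as bars and crosses for library totals alone. Tlr1, Tlr2, Tlr6 and Tlr13 lie to the right of 0 and Tlr3, Tlr5, Tlr8 and Tlr9 to the left under both scalings, Tlr4 turns to -0.08 in WT with library totals, and Tlr7 turns to -0.35 in KO.

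Ordered by level per kb of exon, Tlr2 came first in every group, at 305 CPM per kb in KO CTX, 354 in WT CTX, 183 in KO normal and 205 in WT normal libraries (group means of 4 libraries). Tlr13 came second in all 4 groups, at 68.5 CPM per kb in KO CTX and 67.6 in WT CTX, against 25.9 in KO normal and 27.9 in WT normal libraries. Tlr7 came next, at 26.3 CPM per kb in KO CTX, 27.1 in WT CTX, 21.9 in KO normal and 27.5 in WT normal libraries. In normal muscle the libraries of Tlr13 and Tlr7 overlapped, while in CTX muscle they did not.

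The order below differed between CTX and normal muscle. In KO CTX libraries it ran Tlr4 (22.7 CPM per kb), Tlr1 (13.2), Tlr8 (9.08), Tlr6 (8.37), Tlr5 (3.62), Tlr9 (0.891) and Tlr3 (0.518), and neighbours overlapped for Tlr7 with Tlr4, Tlr8 with Tlr6 and Tlr9 with Tlr3. In WT CTX libraries it ran Tlr4 (18.9 CPM per kb), Tlr1 (15.3), Tlr6 (9.50), Tlr8 (8.54), Tlr5 (3.03), Tlr9 (0.912) and Tlr3 (0.385), with overlap of Tlr7 with Tlr4, Tlr4 with Tlr1 and Tlr6 with Tlr8. In KO normal libraries it ran Tlr8 (14.6 CPM per kb), Tlr4 (12.1), Tlr5 (6.39), Tlr1 (5.94), Tlr6 (2.79), Tlr3 (2.30) and Tlr9 (1.17), and apart from Tlr7 with Tlr8 and Tlr4 with Tlr5 all neighbours overlapped. WT normal libraries had the same order, Tlr8 (15.8 CPM per kb), Tlr4 (13.1), Tlr5 (7.45), Tlr1 (5.55), Tlr6 (2.90), Tlr3 (1.97) and Tlr9 (1.25), with overlap of Tlr8 with Tlr4, Tlr5 with Tlr1 and Tlr1 with Tlr6. Divided by coding length instead, Tlr4 stood above Tlr7 at 46.5 and 34.0 CPM per kb in KO CTX and at 38.7 and 34.9 CPM per kb in WT CTX libraries. By exon length Tlr3 and Tlr9 shared the lowest ranks in all groups, with the mean of Tlr3 above that of Tlr9 in normal muscle and below it in CTX muscle. By coding length Tlr6 (4.31 CPM per kb) stood below Tlr3 (4.41 CPM per kb) in KO normal libraries, and their libraries overlapped.

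**Figure D3:**
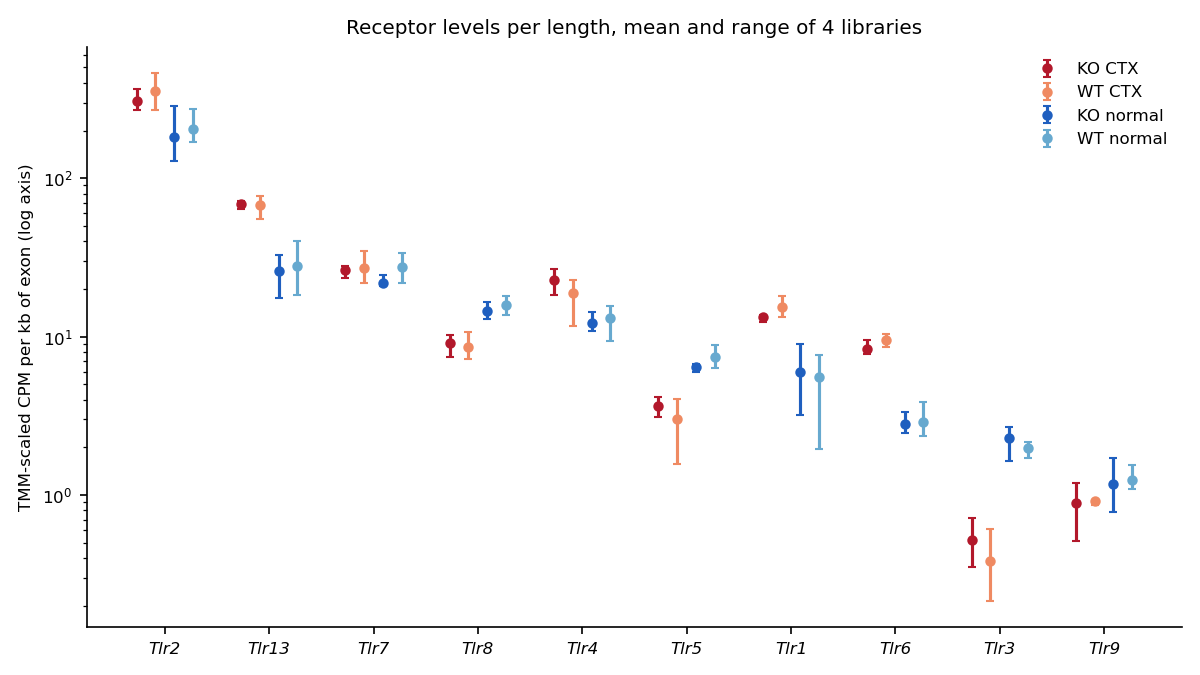
TMM-scaled CPM per kb of exon on a log axis for each receptor gene, with points for group means and bars from the lowest to the highest of 4 libraries, and genes in the order of WT normal libraries. Tlr2 stands at 183 to 354 CPM per kb, above every other member in each group.

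Shares of the family's summed counts per kb within a library do not depend on scaling either. Tlr2 held 66.4 ± 3.39% in KO CTX and 69.5 ± 5.02% in WT CTX, against 65.0 ± 6.15% in KO normal and 66.2 ± 2.29% in WT normal libraries (SD, n = 4 each), and CTX and normal libraries overlapped in both genotypes. Tlr13 held 15.1 ± 2.06% in KO CTX and 13.7 ± 3.02% in WT CTX, against 9.58 ± 1.99% in KO normal and 8.95 ± 1.63% in WT normal libraries, and Tlr8 held 1.99 ± 0.245% in KO CTX and 1.69 ± 0.0986% in WT CTX, against 5.50 ± 1.2% in KO normal and 5.23 ± 0.677% in WT normal libraries. For Tlr8 no CTX library reached a normal one, while for Tlr13 the lowest WT CTX library (9.23%) lay within the normal range. Tlr3 held 0.116 ± 0.0456% in KO CTX and 0.0795 ± 0.0461% in WT CTX, against 0.876 ± 0.283% in KO normal and 0.665 ± 0.166% in WT normal libraries. The surface receptors together held 76.9 ± 2.50% in KO CTX and 79.0 ± 2.84% in WT CTX, against 75.3 ± 4.19% in KO normal and 75.8 ± 1.26% in WT normal libraries. CTX and normal libraries overlapped in this share in both genotypes.

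GLUD1 deficiency was the second question of the design, and none of the 10 receptors was called between KO and WT macrophages in either muscle. In CTX muscle 0.00733% of all tested genes (1 gene) were called with edgeR, and in normal muscle 0.0%. No receptor reached an unadjusted p of 0.05 with edgeR or with DESeq2 in either comparison, where 6.67% of all genes did with edgeR in CTX muscle and 2.86% in normal muscle. With limma voom and sample quality weights, 1 receptor did in each, Tlr6 in CTX muscle (unadjusted p = 0.0268) and Tlr7 in normal muscle (unadjusted p = 0.0323), and none after adjustment. Of all genes in CTX muscle, DESeq2 called 18 higher and 26 lower after adjustment, and limma voom 66 higher and 46 lower. In normal muscle neither tool called a gene. Every receptor's KO and WT libraries overlapped in both muscles, where 5.7% of all genes in CTX muscle and 1.08% in normal muscle did not overlap.

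The intervals show which sizes these libraries could have hidden. In CTX muscle Tlr6 averaged 31.2 ± 2.84 CPM in KO and 35.4 ± 2.97 CPM in WT libraries (SD, n = 4 each), a log2 fold change of -0.18 with a 95% interval of -0.49 to 0.13. Tlr8 averaged 32.6 ± 4.5 CPM in KO and 30.7 ± 5.54 CPM in WT libraries, with an interval of -0.21 to 0.38. Tlr7 averaged 107 ± 9.28 CPM in KO and 110.4 ± 22.5 CPM in WT libraries, with an interval of -0.38 to 0.30, so for these receptors a log2 difference beyond 0.49 in size lay outside the intervals. The widest interval was that of Tlr1 (mean 43.9 ± 2.01 CPM in KO libraries and 51.4 ± 6.74 CPM in WT libraries), which ran from -0.97 to 0.51. Tlr3 had the largest estimate, 2.70 ± 0.847 CPM in KO and 2.01 ± 0.904 CPM in WT libraries, with a log2 fold change of 0.42 (interval -0.21 to 1.06). For Tlr2 the interval was -0.72 to 0.29, for Tlr4 -0.17 to 0.70, for Tlr5 -0.18 to 0.69, for Tlr9 -0.60 to 0.53 and for Tlr13 -0.43 to 0.46.

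In normal muscle Tlr7 came nearest to the threshold. It averaged 89.7 ± 6.99 CPM in KO and 112 ± 25.3 CPM in WT libraries, with WT normal 3 and WT normal 5 above every KO library. Its log2 fold change was -0.33 (95% interval -0.66 to 0.01, unadjusted p = 0.0512, edgeR adjusted p = 0.991, exact two-sided permutation p = 0.171). The other 9 receptors had log2 fold changes of -0.22 for Tlr5 to 0.22 for Tlr3, and the widest interval was again that of Tlr1 (-0.66 to 0.85). The difference between the genotype effects in CTX and normal muscle ranged from -0.32 for Tlr1 to 0.47 for Tlr5 on the log2 scale, and 0 receptors were called (edgeR adjusted p = 1.0 for all 10), with 0.0% of all genes called. With edgeR, DESeq2 or limma voom no receptor reached an unadjusted p of 0.05 in this test, and with edgeR 4.73% of all genes did. After adjustment DESeq2 called 9 of all genes higher and 39 lower, and limma voom 2 higher and 9 lower.

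**Figure D4:**
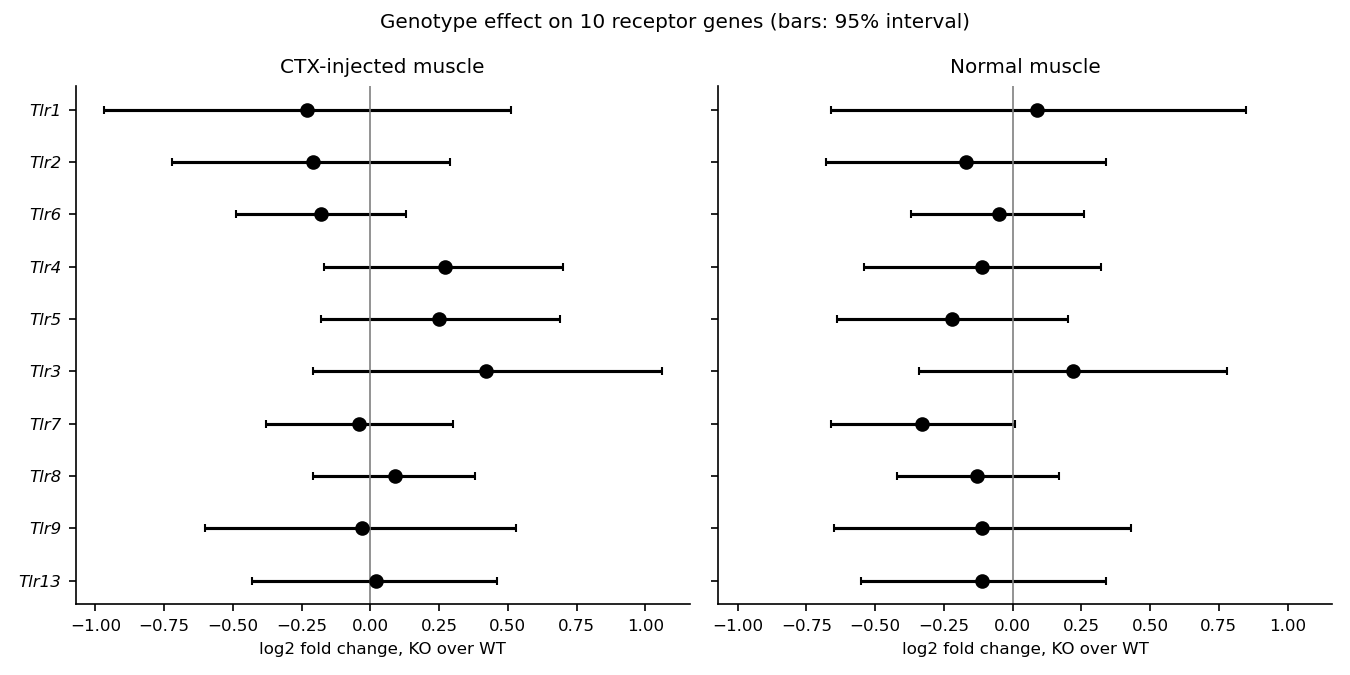
Log2 fold change of each receptor gene, KO over WT, in CTX-injected muscle (left panel) and in normal muscle (right panel), with 95% intervals as bars. Every interval includes 0, and Tlr7 in normal muscle, at -0.66 to 0.01, comes nearest to leaving it out.

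The partners of the receptors moved with injury in part. Counts of called genes in the lists that follow stand beside the 73.6% of all genes called in KO (33.3% higher and 40.2% lower) and the 72.7% called in WT (33.3% higher and 39.4% lower), and their median log2 fold changes beside -0.16 and -0.15. List counts under library totals stand beside 1920 higher and 8398 lower of 13649 genes in KO, and 1944 and 8349 in WT. Of 11 co-receptors and chaperones tested, 6 rose and 4 fell in KO, and 4 rose and 4 fell in WT, with medians of 0.63 and 0.25. With library totals alone the list gave 4 higher and 5 lower in KO (median 0.03) and 3 higher and 6 lower in WT (median -0.35). Its balance thus depends on the scaling, a shift towards lower that all genes shared. With the replicate number as a block, which rests on 2 pairs in WT, 4 were higher and 2 lower there. Of all genes, 2401 were then higher and 3106 lower. Cd14, the co-receptor that hands lipopolysaccharide to Tlr4, averaged 7977 ± 592 CPM in KO CTX, against 1514 ± 963 CPM in KO normal libraries, and 10161 ± 1569 CPM in WT CTX, against 1983 ± 750 CPM in WT normal libraries (SD, n = 4 each). Its log2 fold change was 2.40 in KO (edgeR adjusted p = 1.88e-05) and 2.36 in WT (edgeR adjusted p = 2.24e-05). Unc93b1, the chaperone of the endosomal receptors, fell to 669.5 ± 93.3 CPM in KO CTX, against 1080.1 ± 40.9 CPM in KO normal libraries, and to 610.1 ± 66.9 CPM in WT CTX, against 1114 ± 134 CPM in WT normal libraries. Its log2 fold change was -0.69 in KO and -0.87 in WT, and in WT the call ended with the replicate number as a block (log2 -0.81, edgeR adjusted p = 0.0793). Ly86, the secreted partner of the receptor homologue Cd180, fell by 0.72 in KO and by 1.14 in WT on the log2 scale, and Hsp90b1, the endoplasmic reticulum chaperone gp96, rose by 1.17 and 1.12.

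Proteases that can cut endosomal receptors rose for 4 of 5 genes in both genotypes, where 33.3% of all genes did in each. Ctsl, the lysosomal cathepsin L, averaged 3638 ± 1059.5 CPM in KO CTX, against 257 ± 32.6 CPM in KO normal libraries, and 3799.5 ± 1135 CPM in WT CTX, against 292 ± 58.0 CPM in WT normal libraries. Its log2 fold change was 3.82 in KO (edgeR adjusted p = 4.13e-09) and 3.70 in WT (edgeR adjusted p = 4.81e-09). The log2 rises of Lgmn, the asparagine endopeptidase, were 1.85 in KO and 1.84 in WT, those of Ctsb 1.75 and 1.59, and those of Ctss 0.84 and 0.79. The fifth gene, Ctsk, encodes cathepsin K and was not called in either genotype. The Ctss call ended in both genotypes with library totals alone (log2 0.22 in KO and 0.17 in WT), Ctsk was then called lower in WT (log2 -1.34, edgeR adjusted p = 0.0449), and in WT the calls of Ctsb (log2 1.5) and Ctss (log2 0.70) ended with the replicate number as a block.

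Of 19 adaptors and signalling genes, 14 rose and 2 fell in KO and 11 rose and 2 fell in WT, with medians of 0.71 and 0.56. These 16 and 13 called genes of 19 stand beside the 73.6% and 72.7% of all genes above. With library totals alone the same list gave 6 higher and 7 lower in both genotypes. This balance depends on the scaling, and all genes shifted towards lower as well, to 1920 higher and 8398 lower in KO and 1944 and 8349 in WT. The WT count of lower genes was 1 without KO normal 1 or 2, WT normal 2, 3 or 5, WT CTX 1, 2 or 4, or any single KO CTX library. Ikbke, a kinase upstream of interferon regulatory factors, averaged 255 ± 68.2 CPM in KO CTX, against 17.4 ± 5.63 CPM in KO normal libraries, and 255 ± 66.7 CPM in WT CTX, against 26.4 ± 4.80 CPM in WT normal libraries. Its log2 rise was 3.87 in KO (edgeR adjusted p = 7.88e-09) and 3.27 in WT (edgeR adjusted p = 3.03e-08). Tbk1, its close relative, rose by 1.67 in KO and 1.47 in WT, and Pik3ap1, an adaptor that links receptors to phosphoinositide 3-kinase, by 1.57 and 1.47. Map3k7, the kinase TAK1, rose by 0.71 and 0.72, a call that ended with library totals alone (log2 0.10 and 0.11).

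Negative regulators were mixed, with 6 of 11 higher and 4 lower in both genotypes and medians of 0.53 in KO and 0.69 in WT. Beside these 10 of 11 called genes, 73.6% of all genes were called in KO and 72.7% in WT. Irak3, a kinase-dead brake on MyD88 signalling, rose by 2.17 in KO (edgeR adjusted p = 1.15e-06) and 2.23 in WT (edgeR adjusted p = 8.89e-07) on the log2 scale. Nfkbia, the inhibitor of NF-kB that NF-kB itself induces, rose by 1.39 and 1.63. Sigirr, a receptor that inhibits TIR signalling, fell to 1.83 ± 0.283 CPM in KO CTX, against 9.61 ± 0.931 CPM in KO normal libraries, and to 1.63 ± 0.314 CPM in WT CTX, against 8.35 ± 1.80 CPM in WT normal libraries. Dusp1, a phosphatase that ends MAP kinase signals, fell by 1.98 in KO and by 1.59 in WT on the log2 scale. Under library totals the list gave 3 higher and 5 lower in KO and 5 higher and 4 lower in WT.

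Of the genes that the receptors are known to induce, 14 of 15 listed were tested. In KO 8 rose and 2 fell, and in WT 8 rose and 1 fell, with medians of 1.66 and 1.98. The 10 and 9 called genes of 14 stand beside the 73.6% and 72.7% of all genes called. With library totals alone the list gave 8 higher and 5 lower in KO and 8 higher and 2 lower in WT. Ptgs2, the inducible cyclooxygenase, averaged 2319 ± 467 CPM in KO CTX, against 245 ± 81.7 CPM in KO normal libraries, and 4777 ± 2166 CPM in WT CTX, against 289 ± 98.2 CPM in WT normal libraries. Its log2 fold change was 3.24 in KO (edgeR adjusted p = 6.59e-07) and 4.05 in WT (edgeR adjusted p = 9.25e-08). Irg1, which makes itaconate, rose by 5.74 in KO (edgeR adjusted p = 2.38e-06) and by 5.22 in WT (edgeR adjusted p = 5.14e-06), or by 4.21 in WT without WT CTX 3. Il10, the anti-inflammatory cytokine, rose by 2.31 and 3.33, and Il1b by 1.74 and 2.31. The number of lower genes depended on single libraries: it was 4 in KO without WT CTX 2 or WT CTX 3 and 1 without KO normal 1, and it was 5 in WT without WT CTX 3.

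None of the genes of these 5 lists was called between KO and WT in either muscle or in the interaction. The lists describe which partners of the receptors moved in the same libraries, and whether the receptors had a part in it was not tested.

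**Figure D5:**
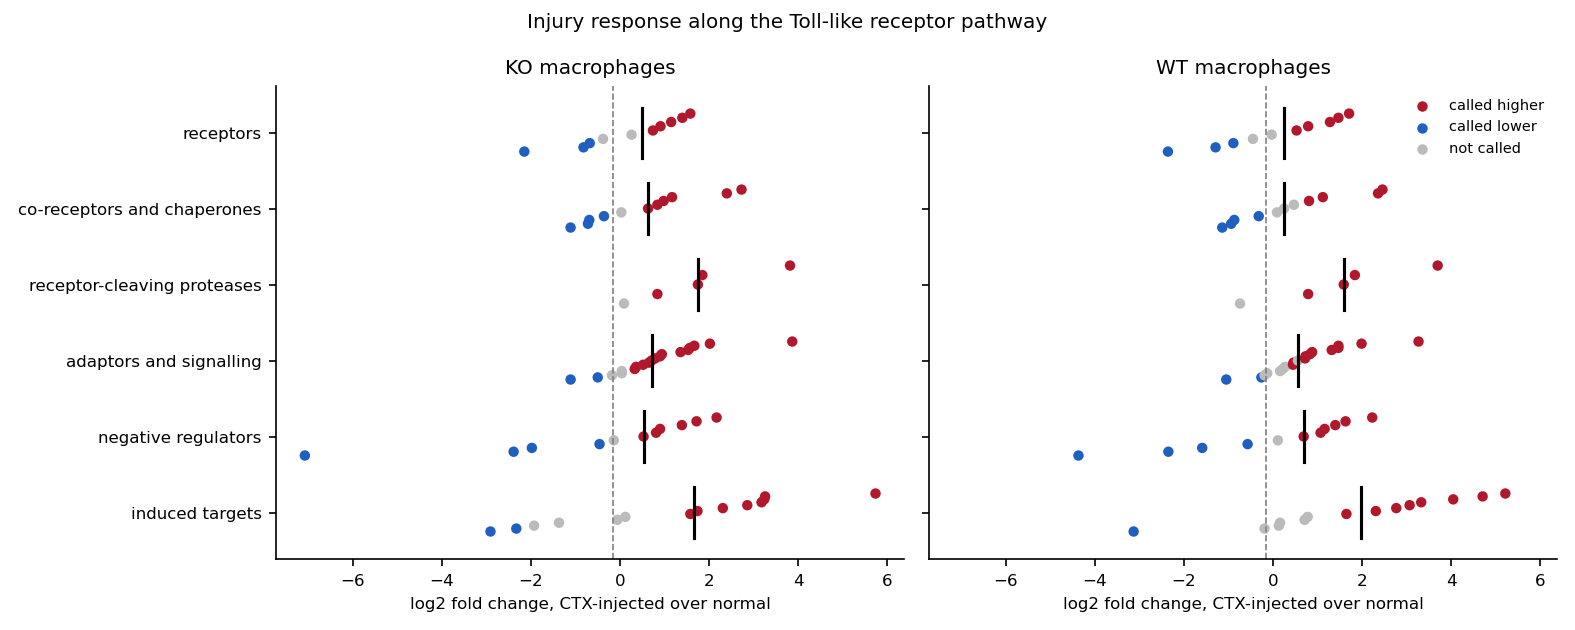
Log2 fold change of every tested gene of 6 pathway lists, CTX-injected over normal muscle, in KO (left panel) and WT macrophages (right panel) under TMM scaling, coloured by call, with the list median as a black line and the median of all genes as a dashed line. The medians of the induced targets stand at 1.66 in KO and 1.98 in WT, against -0.16 and -0.15 for all genes. With library totals alone the adaptors have 6 genes higher and 7 lower in each genotype, and the median of all genes falls to -0.77.

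Within groups, members rose and fell together in part. Over the 16 libraries, deviations from the group means correlated best for Tlr4 with Tlr5 and for Tlr7 with Tlr8 (r = 0.78 each), then for Tlr2 with Tlr7 (r = 0.67) and Tlr6 with Tlr13 (r = 0.62), and least for Tlr4 with Tlr9 (r = -0.57) and Tlr1 with Tlr4 (r = -0.53). WT CTX 3 was the lowest WT CTX library in Tlr4, Tlr5, Tlr6 and Tlr13 and the highest in Tlr1, Tlr2, Tlr7 and Tlr8. Its log2 deviations from the group mean were the largest of any library in Tlr4 (-0.66), Tlr5 (-0.85), Tlr7 (0.38) and Tlr8 (0.34). The correlations of these best pairs lean on that library and were not computed without it. These are descriptions of 16 libraries that share scaling and depth, with no test.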

How the data were processed

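Macrophages sorted as F4/80-positive cells from mouse muscle gave 16 RNA-seq libraries. The labels' protocols name a Qiagen kit for extraction and SMART-Seq V4, a full-length method without strand, for cDNA. The authors deposited raw counts, whole numbers for each gene symbol. The submitters' processing notes name mm10, HISAT2 2.1.0 and featureCounts with Subread 1.6.2, beside FastQC 0.11.7 and cutadapt 1.18 for the reads. The annotation and the treatment of reads with several matches are not given in the sources used here. Antisense genes could not be told apart. The annotated antisense gene Gm45542 overlaps Tlr3 on the opposite strand and is not in the count table. Whether it shares exon bases with Tlr3 was not checked. No other annotated gene overlapped a member.

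Genes were kept with filterByExpr, scaled with TMM and tested with edgeR 4.0.16 (R 4.3.3) in a quasi-likelihood fit with 1 coefficient per group over all 16 libraries. P-values were adjusted by Benjamini-Hochberg over all 13649 genes, in 5 comparisons. Standard errors were taken from the F statistic, and 95% intervals used 12 residual degrees of freedom. Single genes were also compared with exact permutation tests of CPM. The fit was tested on simulated counts. Levels between genes were divided by exon length from GENCODE M21 on GRCm38, and promoters came from RefSeq on GRCm38.p6.

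Totals were 17051892 to 23097420 counts. SMART-Seq V4 reads hold no molecular identifiers, so amplified copies could not be told from separate molecules. Standard errors and intervals were drawn from the spread among libraries, not from counting error alone. The 24 pairs of libraries within groups differed by more than sampling noise (chi-square per degree of freedom 6.33 to 104), and none was treated as a duplicate.

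The members and the pathway and marker lists were chosen with earlier results of these data known. All members are named. Each pathway list names up to 4 genes of smallest p in the WT injury comparison, and likeness takes the 3 best correlated genes of the member of largest rise and of largest fall. Libraries numbered alike deviated from their group means together for KO and WT normal muscle (r = 0.24 to 0.64, 3 pairs), by the rule used (every pair above 0.1). The main fit did not pair them, and the replicate number entered as a block only among the alternatives. Pairs with unlike numbers ran from -0.60 to 0.59, and KO normal 5 correlated more with WT normal 6 (r = 0.59) than with WT normal 5 (r = 0.24). These are the 3 libraries with Xist, so sex and number mix in those pairs. Whether the numbers mark a shared origin was not tested. Libraries numbered alike did not deviate together in CTX muscle (r = -0.12 to 0.00, 4 pairs) or across injury (r = -0.06 to 0.07). The alternatives were RLE scaling, library totals, no filter, a filter of 5 CPM in 4 libraries, the DESeq2 1.42.0 Wald test, limma 3.58.1 voom with quality weights, 2 groups only, the replicate block, male libraries only and each library left out. Leaving out both normal libraries numbered 3 was added after seeing the data.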

Additional observations from a re-analysis of the deposited data

How the results depend on the processing

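The scaling of libraries mattered most. With library totals alone, receptors called higher numbered 2 in KO and 3 in WT (5 each under TMM) and receptors called lower 5 in each genotype (3 each under TMM). Of all 13649 genes, 1920 in KO and 1944 in WT were then called higher, and 8398 and 8349 lower. RLE scaling and DESeq2 left all 50 receptor results with the same direction and the same side of the threshold. The WT injury count of higher receptors was also 3 with the replicate block and 3 over male libraries, and the calls lost were those of Tlr2 (log2 0.85, edgeR adjusted p = 0.0669 with the block, and log2 0.66, edgeR adjusted p = 0.0784 over male libraries) and Tlr4 (log2 0.13 with the block and 0.43 over male libraries). Of all genes, 2401 were called higher in WT with the block and 4125 over male libraries, against 4551 in the main fit. The WT call of Tlr4 also ended under the 5 CPM filter (log2 0.36), in a fit of the 2 groups alone (log2 0.50) and without both normal libraries numbered 3 (log2 0.48). Tlr9 was called lower in WT in the fit of 2 groups (log2 -0.48, edgeR adjusted p = 0.0407), and the 5 CPM filter left it out. Leaving out 1 library at a time gave 4 to 5 higher and 3 to 3 lower in WT, 5 to 5 higher and 3 to 3 lower in KO, and 0 to 0 in either direction for the genotype comparisons and the interaction. Coding length in place of exon length left 6 of 10 receptors at their rank in KO CTX and 6 of 10 in KO normal libraries.

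For KO against WT in normal muscle, the replicate block called 0 genes of 13428 tested, beside 0 of 13649 without it, and changed no receptor call. With the block, the interaction turned for Tlr2 (log2 0.04) and Tlr9 (-0.13). The block ended no receptor call in the KO injury comparison, where 3 numbers occur in both groups, against 2 in WT. The ended WT calls and the kept KO calls are therefore not alike in the libraries they rest on.

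Directions near 0 turned in other results, none of them called except where stated. With library totals, KO over WT in CTX muscle was 0.05 for Tlr7 and 0.06 for Tlr9, KO over WT in normal muscle was 0.03 for Tlr6, and the injury response was -0.08 for Tlr4 in WT and -0.35 for Tlr7 in KO, the last called. With limma voom, KO over WT in CTX muscle was 0.04 for Tlr7 and -0.03 for Tlr13, KO over WT in normal muscle was -0.36 for Tlr1 and 0.02 for Tlr13, and the interaction was 0.18 for Tlr1, 0.14 for Tlr2 and -0.05 for Tlr13. Without both normal libraries numbered 3, KO over WT in normal muscle was -0.02 for Tlr1 and 0.02 for Tlr6, the interaction was 0.10 for Tlr2 and the WT injury response was 0.07 for Tlr7. Without a filter that response was 0.00. Leaving out 1 library gave ranges that crossed 0: for KO over WT in CTX muscle -0.13 to 0.10 (Tlr7), -0.20 to 0.16 (Tlr9) and -0.07 to 0.08 (Tlr13), for KO over WT in normal muscle -0.18 to 0.30 (Tlr1), -0.47 to 0.02 (Tlr2), -0.15 to 0.13 (Tlr6), -0.32 to 0.05 (Tlr9) and -0.25 to 0.13 (Tlr13), for the WT injury response of Tlr7 -0.16 to 0.07, and for the interaction -0.21 to 0.27 (Tlr2), -0.09 to 0.30 (Tlr9) and -0.09 to 0.29 (Tlr13). The WT injury response of Ifnb1 was -1.84 with limma voom and ran from -2.29 to 1.11 when 1 library was left out. The cause of these changes was not tested. Tlr3 and Tlr9, with at most 128 counts in a library for Tlr9, are the receptors that depth limits most.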

Other observations

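The remaining genes are named here after their values were seen. Ly96, which encodes the Md-2 subunit of the Tlr4 complex, averaged 25.3 ± 2.34 CPM in KO CTX, against 12.9 ± 2.29 CPM in KO normal libraries, and 25.9 ± 1.68 CPM in WT CTX, against 14.8 ± 3.39 CPM in WT normal libraries (SD, n = 4 each). Its log2 fold change was 0.98 in KO (edgeR adjusted p = 3.19e-05) and 0.81 in WT (edgeR adjusted p = 0.000184), and the WT call ended with library totals alone (log2 0.20). The related endolysosomal transporters Slc15a3 and Slc15a4 went opposite ways in both genotypes. Slc15a3 averaged 348 ± 45.6 CPM in KO CTX, against 52.4 ± 30.8 CPM in KO normal libraries, and 382 ± 50.2 CPM in WT CTX, against 69.6 ± 30.1 CPM in WT normal libraries (log2 2.73 in KO and 2.46 in WT). Slc15a4 averaged 93.0 ± 4.72 CPM in KO CTX, against 119 ± 11 CPM in KO normal libraries, and 87.9 ± 4.48 CPM in WT CTX, against 109 ± 6.88 CPM in WT normal libraries (log2 -0.36 in KO and -0.32 in WT).

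Ifnb1, the interferon beta gene that Tlr3 and Tlr4 can induce, depended on 1 library. It was 1.26 ± 0.332 CPM in KO CTX, against 9.44 ± 7.34 CPM in KO normal libraries, and 0.669 to 40.7 CPM in WT CTX, against 4.22 to 9.46 CPM in WT normal libraries. The injury response was log2 -2.91 in KO (edgeR adjusted p = 0.0175) and 0.71 in WT (edgeR adjusted p = 0.481), and it turned to -2.29 in WT without WT CTX 3 (edgeR adjusted p = 0.00193). The KO call ended without KO normal 1 (log2 -2.24, edgeR adjusted p = 0.0644), and the difference between the genotypes was not called (interaction log2 -3.62, edgeR adjusted p = 0.85).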
